A study of Bos taurus with 4 samples.

Results

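The genes described here are interferon response genes, a list of 32 genes that cells of mammals switch on, or use, when they answer type I and type III interferon. They were chosen by name, and 30 of the 32 were read from the deposited gene table of 31021 genes; IFIT1 and BST2 were not analysed here. All 30 had at least 20 summed counts, the minimum set for a description, and the lowest sum was 42 (OAS2). Of all genes, 16249 reached that minimum.

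The libraries were made from primary epithelial cells of the mammary gland of Chinese Holstein cows, which were released with enzymes from cultured pieces of the gland. There was 1 RNA-seq library titled HH and 1 titled LL. The series speaks of cows with a high (4.85%) and a low (3.41%) milk fat percentage, but no label says what the codes HH and LL stand for, and the phenotype label is high milk fat in each of these libraries. No treatment, virus or interferon is named in the labels, and the number of cows behind a library is not stated. Every direction below is therefore HH library over LL library, and not a statement on milk fat.

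Interferons are secreted signals of antiviral defence. They bind receptors on the cell surface, the kinases JAK1 and TYK2 then phosphorylate STAT proteins such as STAT2, which works with IRF9 to switch on a large set of target genes. RNA sensors such as RIG-I and MDA5, acting through IRF3 and IRF7, start the production of interferon itself. Epithelial cells, including those of the mammary gland, can run this program as well as immune cells.

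The HH library held 17369144 counts and the LL library 16318951. Values are raw counts, or CPM (counts per 1000000 counts) after scaling with TMM factors, and a log2 ratio is HH over LL on that scale. With 1 library per code nothing here has a replicate check, and no p-value is given. Each ratio has an exact (Clopper-Pearson) 95% interval that covers counting error of reads only. Reads are not independent molecules, so the intervals may be too narrow. CPM values are not divided by transcript length, so levels are compared between libraries and never between genes. In RNA from a mixture of cells, fewer cells of a type and less RNA per cell cannot be told apart.

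Many antiviral effector genes were higher in the HH library, while the RNA sensors, IFIT5, HERC5, TRIM25, IFI35 and IRF9 had intervals across no change and point ratios between 0.949- and 1.08-fold. The signalling factors split, with IRF7 and IRF1 higher in HH. OAS1X and IFI6 stood at 5.30-fold and 4.04-fold. ISG15, USP18, OAS2, IFI44 and EPSTI1 were also at least 2-fold higher in HH by their point ratio. STAT2 went the other way, at a log2 ratio of −0.40.

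**Figure D1:**
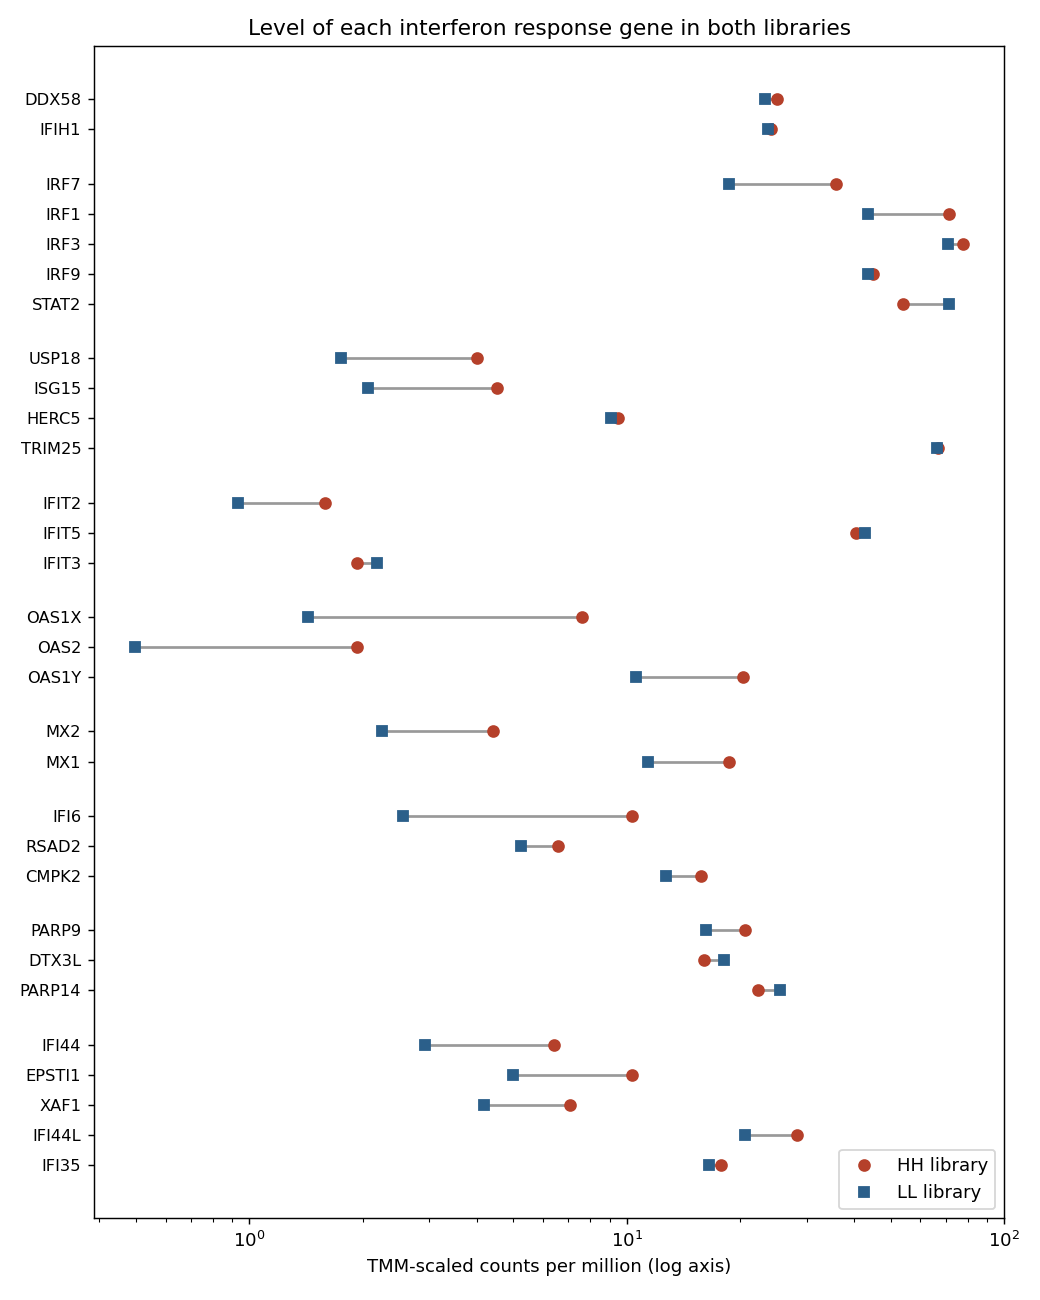
Level of each of the 30 genes, in TMM-scaled CPM on a log axis, in the HH library (circles) and the LL library (squares), grouped by role. The HH circle lies to the right of the LL square for 25 genes and to the left for STAT2, IFIT3, IFIT5, PARP14 and DTX3L.

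In counts, 25 of the 30 genes (83.3%) had a positive log2 ratio, against 49.0% of all genes tested. The median over the 30 genes was 0.40, with quartiles at 0.05 and 0.97. Over all genes the median was −0.01, with quartiles at −0.26 and 0.28. Of the 30 genes, 18 lay above the upper quartile of all genes, 14 above the 90th percentile (0.70), and 1 below the lower quartile. Among the 12026 genes whose summed counts fell in the same range as those of the 30, from 42 to 2513, the median was likewise −0.01.

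Calls are read against the share of all genes called by the same rule. The whole interval lay past 2-fold in HH for 2 genes (6.67%), OAS1X and IFI6, against 1.97% of all genes. It lay past 2-fold in LL for 0 of the 30, against 1.22% of all genes. By the point ratio alone 7 genes were at least 2-fold higher in HH, against 5.69% of all genes, and 0 were at least 2-fold lower, against 3.82%. The whole interval lay above no change for 17 genes (56.7%), against 24.5% of all genes, and below it for 1 gene, STAT2, against 24.6%. The other 12 intervals held a log2 ratio of 0. When every 4 reads were counted as 1 molecule, an alternative chosen after seeing the data, 9 of the 17 stayed above no change. The 8 that did not were IRF3, ISG15, USP18, OAS2, MX2, CMPK2, PARP9 and XAF1. Their place above no change depends on how many reads stand for 1 molecule, and no number between 1 and 4 was tried. The share of all genes above no change with 4 reads per molecule was not computed.

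**Figure D2:**
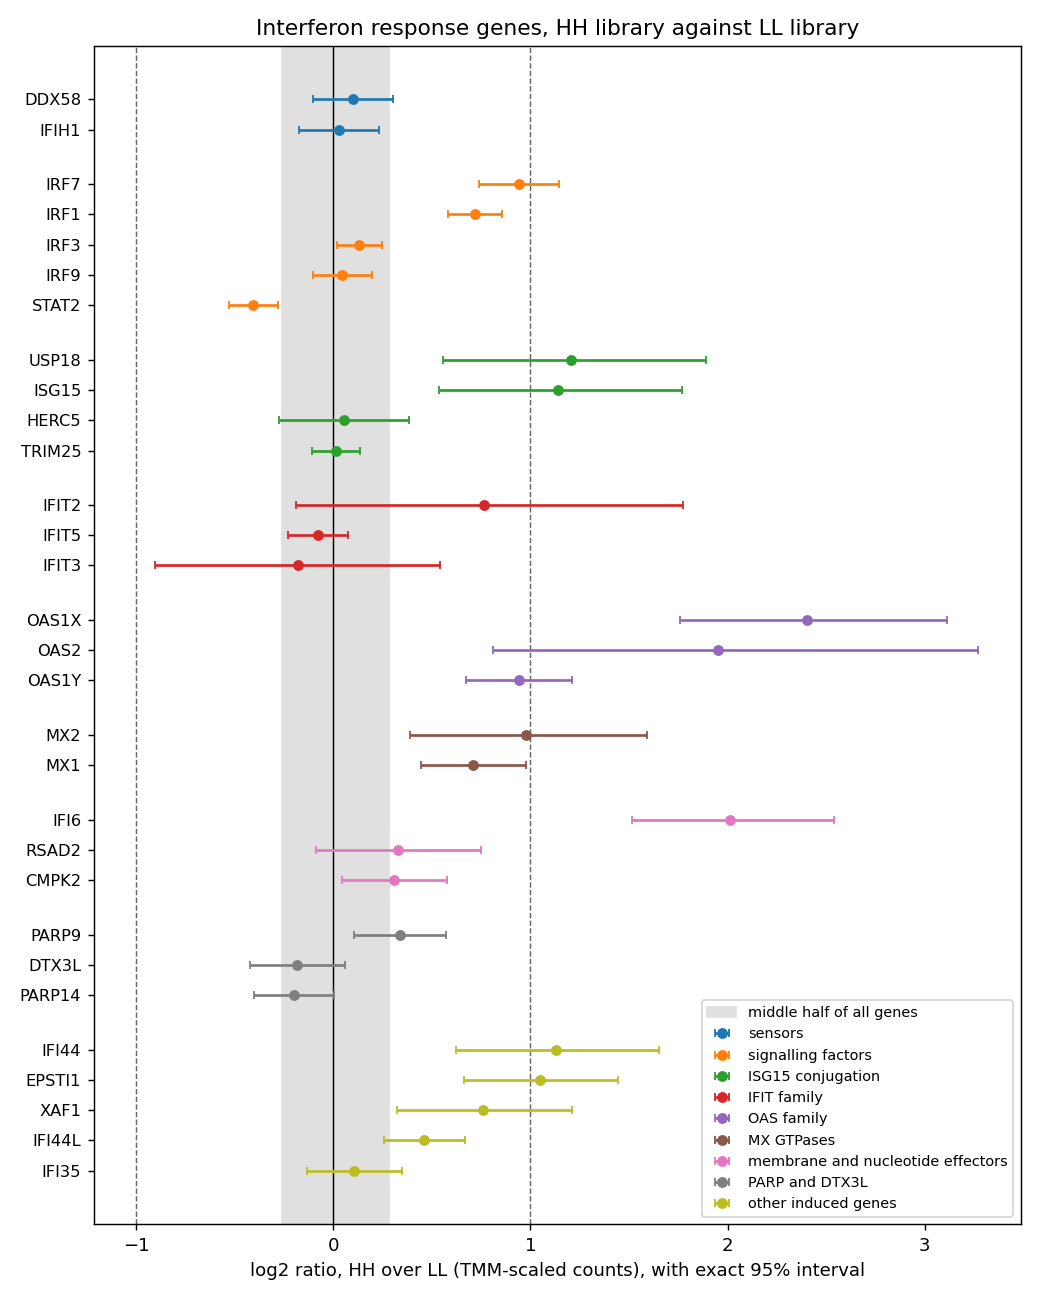
Log2 ratio, HH over LL, of each of the 30 genes with its exact 95% interval, which covers counting error only; colours give the role, the grey band runs from the lower to the upper quartile of all genes, and dashed lines mark 2-fold. The intervals of OAS1X and IFI6 lie wholly to the right of the 2-fold line, and STAT2 is the gene whose interval lies wholly to the left of 0.

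The RNA sensors differed little between the libraries. DDX58, which encodes RIG-I, the sensor of RNA ends left by many viruses, had 441 counts in HH against 374 in LL (24.98 against 23.30 CPM). IFIH1, which encodes MDA5, the sensor of long double-stranded RNA, had 426 counts in HH against 380 in LL (24.1 against 23.7 CPM). Their log2 ratios were 0.10 (−0.10 to 0.30) and 0.03 (−0.18 to 0.23), so a difference was not detectable at this depth.

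Among the signalling factors the libraries split by gene. IRF7, the factor that amplifies type I interferon production and is itself an interferon target, had 632 counts in HH and 299 in LL (35.8 against 18.6 CPM). Its log2 ratio was 0.94 (0.74 to 1.15). IRF1, a factor induced most by interferon gamma, had 1264 and 698 counts (71.6 against 43.5 CPM), a log2 ratio of 0.72 (0.58 to 0.85). Both were higher in HH beyond counting error.

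IRF3, which is present before infection and is switched on by phosphorylation, had 1374 counts in HH and 1139 in LL, at a ratio of 0.13 on the log2 scale (0.02 to 0.25). Under upper-quartile scaling its interval held 0. IRF9, the DNA-binding part of the ISGF3 complex, had 793 against 698 counts and a log2 ratio of 0.05 (−0.10 to 0.20). STAT2, the partner of IRF9 in that complex, had 955 counts in HH against 1149 in LL (54.1 against 71.6 CPM), a log2 ratio of −0.40 (−0.53 to −0.28), so it was lower in HH.

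The ratio between the ratios of 2 genes does not depend on the scaling. For IRF7 over IRF3 it was 0.81 on the log2 scale (0.58 to 1.04), and for IRF7 over IRF9 it was 0.90 (0.64 to 1.15). For IRF9 over STAT2 it was 0.45 (0.26 to 0.65). Each of these gaps lay beyond counting error, so the factors did not share a ratio. In all, 17 such pairs of genes were computed, chosen with the values known, and their intervals are not adjusted for that number.

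ISG15 is a ubiquitin-like protein that is attached to other proteins during the interferon response. Its gene had 80 counts in HH against 33 in LL (4.53 against 2.06 CPM), a log2 ratio of 1.14 (0.54 to 1.77). USP18, the protease that takes ISG15 off again and dampens the type I receptor, had 71 against 28 counts (4.02 against 1.74 CPM), a log2 ratio of 1.20 (0.56 to 1.89). Both lay higher in HH, and their low counts leave intervals from 1.45- to 3.41-fold for ISG15 and from 1.47- to 3.71-fold for USP18.

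The ligases showed no such gap. HERC5, a ligase for ISG15, had 167 counts in HH and 146 in LL, which put its log2 ratio at 0.06 (−0.27 to 0.39). TRIM25, a ubiquitin ligase that acts on RIG-I, had 1181 and 1064 counts, a log2 ratio of 0.01 (−0.11 to 0.13), whose sign turned under upper-quartile scaling. ISG15 over HERC5 gave 1.08 on the log2 scale (0.39 to 1.80), and USP18 over HERC5 gave 1.15 (0.41 to 1.91).

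The OAS genes encode 2′-5′-oligoadenylate synthases, which sense double-stranded RNA and make the messenger that turns on RNase L. All 3 on the list were higher in HH beyond counting error. OAS1X had 134 counts in HH against 23 in LL (7.59 against 1.43 CPM), a log2 ratio of 2.41 (1.76 to 3.11). OAS1Y had 359 against 170 counts (20.3 against 10.6 CPM), a log2 ratio of 0.94 (0.67 to 1.21). OAS2 had 34 against 8 counts (1.93 against 0.498 CPM), a log2 ratio of 1.95 (0.81 to 3.27), the widest interval of the 30 genes.

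OAS1X and OAS1Y are copies of an ancestral gene and share their best human match, OAS1, with OAS1Z. The sources used here do not say how reads shared between the copies were counted, so each single value is uncertain. OAS1Z had 56 counts in HH and 33 in LL, and its log2 ratio was 0.63 (−0.02 to 1.29). Summed over the 3 copies there were 549 counts in HH against 226 in LL, a log2 ratio of 1.14 (0.92 to 1.37). OAS1X over OAS1Y gave 1.46 on the log2 scale (0.75 to 2.22), so among the 3 copies the libraries differed most in OAS1X as counted. OASL, a related gene looked up after the values were seen, had 43 counts in HH against 5 in LL, and its log2 ratio was 2.97 (1.63 to 4.66).

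Some IFIT proteins bind foreign RNA through its 5′ end and block its translation. None of the 3 measured genes differed beyond counting error. IFIT5 had 717 counts in HH against 687 in LL (40.6 against 42.8 CPM), a log2 ratio of −0.08 (−0.23 to 0.08), or 0.949-fold with an interval from 0.853- to 1.06-fold. IFIT3 had 34 against 35 counts (−0.18, interval −0.90 to 0.54) and IFIT2 28 against 15 (0.76, interval −0.19 to 1.77). Their counts are low, and the intervals run from 0.534- to 1.46-fold for IFIT3 and from 0.876- to 3.42-fold for IFIT2.

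MX1 and MX2 encode dynamin-like GTPases that trap viral nucleoproteins or capsids. MX1 had 329 counts in HH against 183 in LL (18.6 against 11.4 CPM), a log2 ratio of 0.71 (0.44 to 0.98). MX2 had 78 against 36 counts (4.42 against 2.24 CPM), a log2 ratio of 0.98 (0.39 to 1.59). Both were higher in HH, and MX2 over MX1 gave 0.27 on the log2 scale with an interval across 0 (−0.38 to 0.94).

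IFI6, a small mitochondrial and endoplasmic reticulum protein with antiviral activity, had 182 counts in HH against 41 in LL (10.3 against 2.55 CPM), a log2 ratio of 2.01 (1.52 to 2.54). RSAD2, which encodes viperin, an enzyme that makes a chain-terminating nucleotide, had 116 against 84 counts (6.57 against 5.23 CPM), a log2 ratio of 0.33 (−0.09 to 0.75). CMPK2, a mitochondrial nucleotide kinase encoded next to RSAD2, had 278 against 204 counts (15.7 against 12.7 CPM), a log2 ratio of 0.31 (0.04 to 0.58). IFI6 thus stood well apart from the other 2 genes of this group, which stood at 1.26-fold (RSAD2) and 1.24-fold (CMPK2).

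PARP9, PARP14 and DTX3L belong to the ADP-ribosylation arm of the response; PARP9 and DTX3L act as a complex that also ubiquitylates proteins. PARP9 had 363 counts in HH against 261 in LL (20.6 against 16.3 CPM), a log2 ratio of 0.34 (0.10 to 0.57). DTX3L had 282 against 291 counts (16.0 against 18.1 CPM), a log2 ratio of −0.18 (−0.42 to 0.06). PARP14 had 393 against 410 counts (22.3 against 25.5 CPM), a log2 ratio of −0.20 (−0.40 to 0.0046), and its interval fell wholly below 0 under upper-quartile scaling and with mRNA genes only. PARP9 over DTX3L gave 0.52 on the log2 scale (0.18 to 0.86), so the partners of the complex did not keep the same ratio in both libraries.

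IFI44 and IFI44L are related genes of the response whose protein function is less well known. IFI44 had 113 counts in HH against 47 in LL (6.40 against 2.93 CPM), a log2 ratio of 1.13 (0.63 to 1.65). IFI44L had 500 against 330 counts (28.3 against 20.6 CPM), a log2 ratio of 0.46 (0.26 to 0.67). Both were higher in HH, and IFI44 over IFI44L gave 0.67 on the log2 scale (0.12 to 1.23).

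EPSTI1, named for its induction in human breast cancer cells by stromal fibroblasts and also an interferon target, had 182 counts in HH against 80 in LL (10.3 against 4.98 CPM), a log2 ratio of 1.05 (0.66 to 1.45). XAF1, which antagonises the apoptosis inhibitor XIAP, had 125 against 67 counts (7.08 against 4.17 CPM), a log2 ratio of 0.76 (0.32 to 1.21). IFI35, a leucine zipper protein that pairs with NMI, had 314 against 265 counts (17.8 against 16.5 CPM), a log2 ratio of 0.11 (−0.13 to 0.35). The first 2 were higher in HH beyond counting error and IFI35 was not.

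Genes of the list that lie side by side did not all share a ratio. RefSeq's genes of assembly ARS-UCD2.0, used only for the order of genes, held 29 of the 30 symbols. Neighbours with no protein-coding gene between them were MX2 and MX1, RSAD2 and CMPK2, PARP9 with DTX3L and DTX3L with PARP14, OAS2 with OAS1Y and OAS1Y with OAS1X, IFIT2 and IFIT3, and IFI44 and IFI44L. The difference between neighbours lay beyond counting error for PARP9 and DTX3L, OAS1Y and OAS1X, and IFI44 and IFI44L. It did not for RSAD2 over CMPK2 (0.02, interval −0.48 to 0.52), DTX3L over PARP14 (0.02, interval −0.30 to 0.33), OAS2 over OAS1Y (1.01, interval −0.17 to 2.36), IFIT2 over IFIT3 (0.93, interval −0.29 to 2.19), or MX2 over MX1.

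The genes with high ratios were mostly those with few reads. The 15 genes with the lowest summed counts had a median log2 ratio of 0.98, and 11 of them had an interval wholly above no change. The 15 with the highest had a median of 0.10, with 6 such intervals. Of all genes 24.5% had such an interval, a share that was not split by summed counts. Across the 30 genes Spearman's rho between summed counts and log2 ratio was −0.59, against −0.02 across all 16249 genes; the genes share the same 2 libraries, and the ratio is noisier where counts are low. Because of this the sum over the list moved less than its median: 11945 counts in HH against 9245 in LL (676 against 576 CPM), a log2 ratio of 0.23 (0.19 to 0.27).

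**Figure D3:**
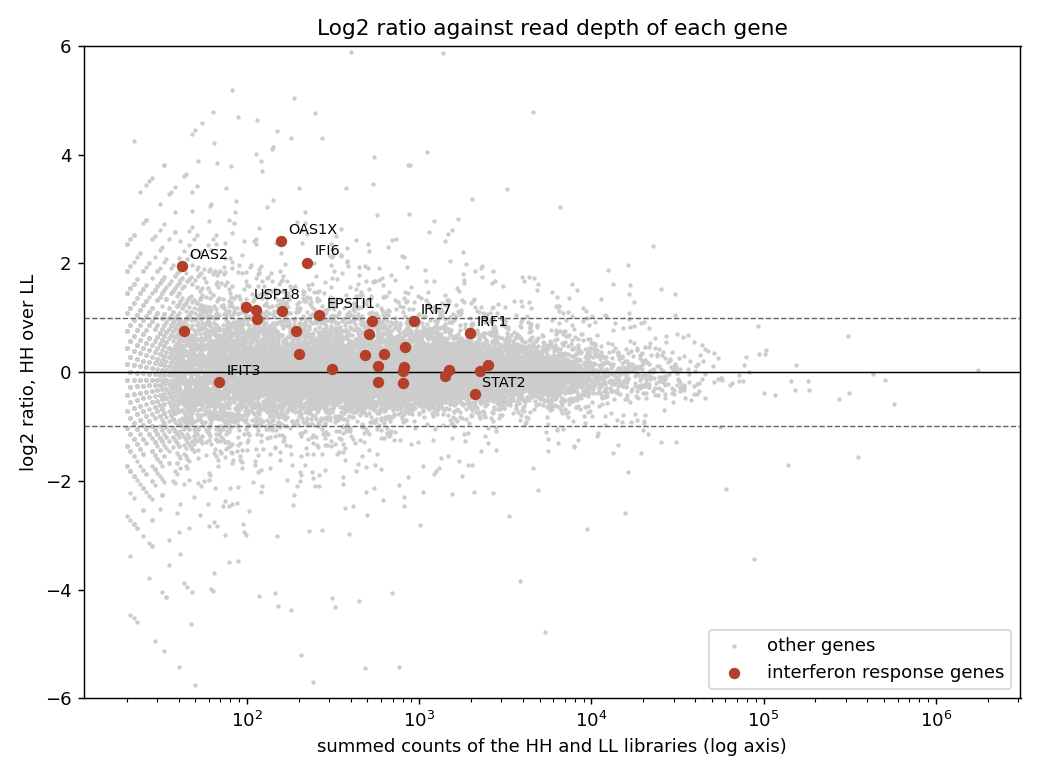
Log2 ratio, HH over LL, against the summed counts of both libraries on a log axis, for the 30 interferon response genes (large points) and all other genes with at least 20 summed counts (small points); dashed lines mark 2-fold, and 19 genes with 0 counts in a library or a ratio beyond 6 are not drawn. The interferon response genes at 2-fold or more have at most 262 summed counts, and IRF7 and IRF1 are the best covered of those above 0.7.

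Further genes of the pathway were read from lists by role, outside the 30. Over the 101 such genes with at least 20 summed counts the median log2 ratio was 0.06. The whole interval lay above no change for 37 of them (36.6%) and below it for 18 (17.8%), against 24.5% and 24.6% of all genes. It lay past 2-fold for 3 in HH (2.97%) and 1 in LL (0.99%), against 1.97% and 1.22% of all genes. Their median was closer to that of all genes than was the median of the 30.

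Transcripts of the interferon genes read here were at the edge of detection. Of 16 ligand symbols sought, 12 were read, and interferon copies under other symbols were not. How reads shared between similar copies were counted is not known. The 12 ligand genes in the table summed to 8 counts in HH and 2 in LL. None had more than 3 counts in either library, which is the floor used here (0.170 CPM in HH and 0.187 CPM in LL), so no fold is given. IFNB1, the interferon beta gene, had 2 counts in HH and 0 in LL, IFNG, the interferon gamma gene, 1 and 0, IFNK 3 and 2, and IFNE and IFNT2 1 and 0 each. IFNB3, IFNAC, IFNAD, IFNAG, IFNAH, IFNW1 and IFNL3 had 0 in both.

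Of the 6 receptor genes, IFNLR1, which encodes the specific chain of the type III interferon receptor used by epithelia, had 57 counts in HH against 9 in LL (3.23 against 0.561 CPM), a log2 ratio of 2.53 (1.501 to 3.73). IL10RB, its shared partner chain, had 591 against 637 counts, a log2 ratio of −0.25 (−0.41 to −0.08). IFNAR2, the high-affinity chain of the type I receptor, was at 0.68 (0.51 to 0.86), with 729 counts in HH and 413 in LL. IFNAR1, its partner, was at −0.34 (−0.43 to −0.26), with 2303 and 2658. IFNGR1 and IFNGR2, the interferon gamma receptor chains, were at −0.04 and −0.03, with intervals across 0. In each of the type I and type III pairs 1 chain was thus higher and its partner lower in HH.

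The kinases were slightly higher in HH. JAK1, JAK2 and TYK2, which relay the signal from the receptors, had log2 ratios of 0.31, 0.40 and 0.36, all with intervals above 0. STAT3, a factor used by many cytokines, was at −0.03 (−0.08 to 0.01), with an interval across 0.

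Among 14 genes of sensing and relay the median log2 ratio was −0.22, with 4 intervals above no change (28.6%, against 24.5% of all genes) and 6 below (42.9%, against 24.6%). ZBP1, a sensor of Z-form nucleic acid, had 115 counts in HH against 50 in LL, so its log2 ratio was 1.06 (0.57 to 1.57). TLR3, the endosomal sensor of double-stranded RNA, and its adaptor TICAM1 were at 0.60 and 0.45. TMEM173, which encodes STING, the relay of DNA sensing, and EIF2AK2, which encodes the kinase PKR, were at −0.52 and −0.38, so lower in HH.

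The 7 other IRF genes had a median of 0.08, with IRF4, a factor of lymphoid and plasma cells, past 2-fold in LL at −1.96 (−2.42 to −1.51). It had 53 counts in HH against 187 in LL. IRF8, a factor of myeloid and B cells, was at −0.62. IRF2BP2 was at 0.71 and IRF5 at 0.21. Of 7 B and plasma cell markers, 5 had intervals below no change (71.4%, against 24.6% of all genes). Among them were MZB1, with 109 counts in HH against 505 in LL, and CD79A and CD79B at −1.45 and −1.88. The plasma cell marker JCHAIN went the other way, with 3359 against 2758 counts and a log2 ratio of 0.15 (0.07 to 0.22).

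The 12 genes listed for restraint of the response had a median of −0.01. The list also held ISG20, an induced antiviral gene, so it was not made of inhibitors alone. Of the 12 intervals, 3 lay above no change and 3 below, each near the share of all genes (24.5% and 24.6%). SOCS3, an inhibitor of JAK signalling, was at −0.54, SOCS1, its relative and the main brake on interferon signalling, at −0.20 (−0.70 to 0.30), RNF125, a ligase that marks RIG-I for decay, at −0.92, NLRC5 at 0.62 and OTUD5 at 0.21.

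The 38 further induced genes had a median log2 ratio of 0.20, with 14 intervals above no change (36.8%, against 24.5% of all genes) and 3 below (7.89%, against 24.6%). TREX1, a nuclease that removes cytosolic DNA, was past 2-fold in HH at 1.48 (1.17 to 1.80), with 347 counts against 113. UBA7, the enzyme that activates ISG15 for conjugation, was at 0.71 (0.48 to 0.95) and the guanylate-binding protein gene GBP2 at 0.92. GBP4 was at 0.69 (−0.36 to 1.79), and ISG12(B) at −1.28 on 10 counts in HH and 22 in LL.

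The 19 type II targets and antigen presentation genes had a median of 0.05, with 9 intervals above no change (47.4%, against 24.5% of all genes) and 1 below (5.26%, against 24.6%). JSP.1, an MHC class I gene, had 3638 counts in HH against 1000 in LL, a log2 ratio of 1.73 (1.62 to 1.83), while BOLA-NC1, another gene of that family, was at 0.36. These genes are highly similar and vary between animals, so reads may be split differently between them. CXCL10, a chemokine, had 27 counts against 6 (2.03, interval 0.73 to 3.60) and IDO1, an enzyme that degrades tryptophan, 53 against 22 (1.13, interval 0.39 to 1.92). ICAM1 was at −0.34.

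**Figure D4:**
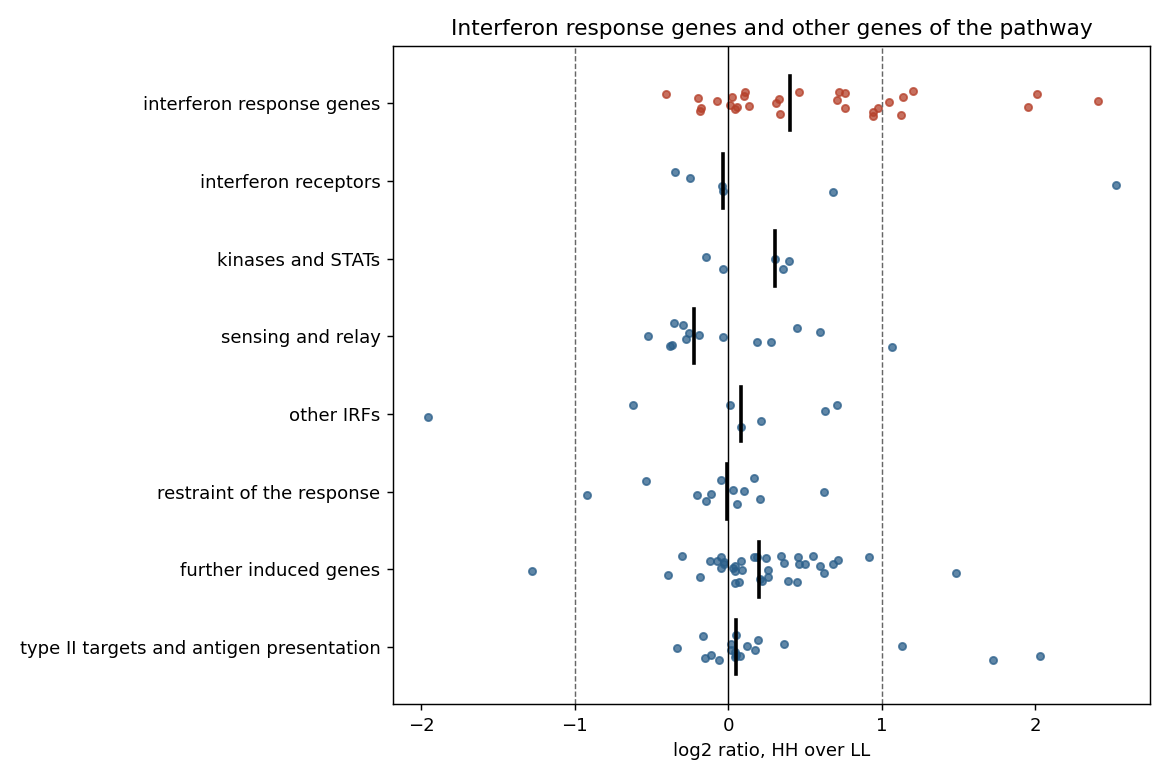
Log2 ratio, HH over LL, of each gene with at least 20 summed counts (points, spread vertically at random so that they do not overlap) in the 30 interferon response genes and 7 other lists of the pathway; black bars are medians and dashed lines mark 2-fold. The median of the interferon response genes is 0.40, and those of the other lists run from −0.22 to 0.31.

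Markers of several cell types also differed between the libraries. Markers of T and NK cells had a median log2 ratio of 0.69 over 15 genes. Their intervals lay above no change for 6 (40.0%, against 24.5% of all genes) and below it for 1 (6.67%, against 24.6%). The gene below was CD7, with 42 counts in HH against 71 in LL. All 18 on the list were above 0 in both libraries, and they summed to 150 CPM in HH against 67.9 CPM in LL. The chemokine gene CCL5, with 1234 against 272 counts, carried much of that sum; without it the other 17 summed to 80.5 CPM in HH against 51.0 CPM in LL. EOMES had 106 counts against 6 and CD5 93 against 24. CD3D and CD3E, which encode chains of the T cell receptor complex, had 123 against 48 and 428 against 192, while CD3G, another such chain, had 37 against 43.

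Most epithelial and fibroblast markers were also higher in HH. Luminal epithelial markers summed to 8890 CPM in HH against 5880 CPM in LL, with 9 of 10 intervals above no change. Basal epithelial markers summed to 2380 against 1070 CPM, with 8 of 8 intervals above no change (100%, against 24.5% of all genes). The epithelial markers with intervals past 2-fold in HH were the keratin genes KRT18, KRT14, KRT17 and KRT5 and the claudin genes CLDN3 and CLDN4. They made up 30.0% of the luminal and 37.5% of the basal markers, against 1.97% of all genes. Fibroblast markers had a median log2 ratio of 0.70, with LUM, FAP and COL1A1 at 1.23, 1.25 and 0.84. COL3A1 was lower in HH, at −0.28 (−0.40 to −0.16), and PDGFRB was at −0.09 (−0.19 to 0.01). Of the fibroblast marker intervals, 5 of 8 lay above no change (62.5%, against 24.5% of all genes). Below it lay 1 (12.5%, against 24.6% of all genes). The sum of the fibroblast markers, 748 CPM in HH against 625 CPM in LL, is led by DCN, which was at 0.06.

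Endothelial markers summed to 804 CPM in HH against 976 CPM in LL, with VWF, CDH5 and TIE1 at −0.44, −0.35 and 0.43. Their intervals lay above no change for 1 of 7 (14.3%) and below it for 4 (57.1%). Of all genes, 24.5% lay above and 24.6% below. Macrophage and dendritic cell markers summed to 294 against 306 CPM, with AIF1, FLT3 and MRC1 at −0.56, −0.43 and 0.39. The intervals of FLT3 (−1.31 to 0.43) and MRC1 (−0.01 to 0.80) held 0. Of the 9 macrophage and dendritic cell markers, 1 interval (11.1%) lay above no change and 3 (33.3%) below. None of the 9 lay past 2-fold, a rule passed by 1.97% of all genes in HH and 1.22% in LL. Neutrophil markers summed to 7.70 against 25.7 CPM, with S100A9, CXCR2 and CSF3R at −2.05, −1.33 and −1.29. All 4 with at least 20 summed counts had intervals below no change (100%, against 24.6% of all genes). The labels call the cells epithelial, and the defining markers of the epithelium were present in both libraries, as were those of endothelium and immune cells. The part of these cell types in the ratios of the interferon response genes was not tested.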

How the data were processed

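Per the labels' protocols, TRIzol RNA was treated with DNase I and libraries were prepared using the Ion Total RNA-Seq Kit. The authors deposited raw read counts for each gene in whole numbers, in columns HH and LL per the file headers. Aligner, counter, strand setting, genome build and annotation: not given in the sources used here. Small RNA files were not used here. Libraries were grouped by the codes in their titles.

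Counts were scaled with TMM factors over all genes (edgeR 4.0.16, R 4.3.3). The share of a gene's counts from HH was given an exact 95% interval (scipy 1.17.1), turned into a log2 ratio. Genes with at least 20 summed counts were compared across the whole table, and a call is a whole interval past 2-fold, or past no change, without a test between replicates. The difference between 2 genes is a conditional exact odds ratio. The members and lists were chosen with earlier results of these data known.

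Every measured list member is named; of each other list, up to 5 genes (3 for markers) with the largest ratios, and every ligand, receptor, kinase and STAT in the table, except that results on 2 genes are not reported here because those items are withheld for evaluation. OASL, JCHAIN, DCN, MUC1, COL3A1, PDGFRB, CD7, CD3D, CD3E, CD3G, and the choice of pairs, were added after values were seen. Scaling by total counts, DESeq2 1.42.0 size factors, upper quartile or mRNA genes only, other count minimums, folds and gene subsets were tried. Planned promoter motifs were not analysed here. The steps were tested on simulated data.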

Additional observations from a re-analysis of the deposited data

How the results depend on the processing

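The median log2 ratio of the interferon response genes stayed between 0.33 and 0.45 under every scaling, count minimum and gene subset tried, and that of the other pathway genes between 0.04 and 0.11 under every scaling. The number called past 2-fold in HH was 2 under every scaling and 0 in LL; it was 1 among the 28 genes that alone hold their human match, which leaves out OAS1X and OAS1Y, and 7 with the interval past 1.5-fold or with the point ratio in place of the interval. The 7 past 1.5-fold were IRF7, OAS1X, OAS1Y, OAS2, IFI6, IFI44 and EPSTI1. No share of all genes past 1.5-fold was computed. Intervals below no change numbered 2, STAT2 and PARP14, under upper-quartile scaling and with mRNA genes only. Counting every 4 reads as 1 molecule, chosen after seeing the data, left 9 genes above no change in place of 17: IRF1, IRF7, OAS1X, OAS1Y, MX1, IFI6, IFI44, IFI44L and EPSTI1. The share of all genes under that rule was not computed. Under total counts the receptor median was 0.0108 in place of −0.0367. That of the list for restraint of the response was 0.0388 in place of −0.0087, or 0.008 under DESeq2 size factors. Each scaling moves all ratios by the same amount, 0.0475 for total counts and 0.0167 for DESeq2 size factors. That shift alone carried these medians, which lie near 0, to the other sign. The scalings shifted all ratios by −0.02 to 0.05. No paired analysis was possible because each code has 1 RNA-seq library, and leaving out a replicate was not possible for the same reason. Depth limits genes such as OAS2, IFIT2 and IFIT3, with 42, 43 and 69 summed counts.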
